A study of Mus musculus with 12 samples.

Results

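MicroRNA genes were followed across osteoblasts and endothelial cells sorted from the long bones of mice with and without tumor cells growing in the bone. A gene was taken as a member if its single annotated symbol began with Mir and a digit, or with Mirlet7, and if its mean log2 value over the 12 arrays lay above 5.58, the 40th percentile of all probe set means. Host transcripts whose symbols end in hg were left out, and the brightest probe set stood for a gene. This rule took 106 of the 296 microRNA genes with a probe set of a single symbol, among 19937 genes in all. Mir99a, which the rule names, had a mean of 5.21 and so fell below the threshold. It is described beside the members and is not counted among them. The rule used the mean level of a gene but no difference between groups, so the levels are a description and the comparisons between groups are tested. Mir99a was singled out for its high value in the osteoblasts of tumor-free mice, and its comparisons are given without a test. Just above the threshold lay Mir6516 (5.62), Mir297b (5.61) and Mir505 (5.61), and just below it Mir484 (5.58), Mir7b (5.56) and Mir485 (5.51).

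All mice were female C57BL/6. Tumor-bearing mice had received 500000 EO771 cells, a mammary cancer line of the same strain, by injection into the heart, and growth in the bones was followed for about 2 weeks. The labels do not give the ages of the mice. Osteoblasts were CD51+ cells negative for GFP, TR119, CD45, SCA1 and CD31, and endothelial cells were SCA1+ CD31+ cells negative for GFP, TR119 and CD45. Both cell types were taken from mice with and without tumor, which gives 4 groups with 3 Affymetrix Mouse Gene 1.0 ST arrays per group. The labels call the arrays of a group biological replicates, and each array holds the amplified RNA of 5000 cells. Whether arrays came from single mice or pools, and whether both cell types came from the same mice, is not stated. Groups of so few arrays limit the precision.

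A microRNA is cut from a longer transcript. Drosha and Dgcr8 release a hairpin in the nucleus, Xpo5 exports it, Dicer1 cuts it to a duplex, and an Argonaute protein such as Ago2 holds a single strand and uses its seed, bases 2 to 8, to find messenger RNAs. Many microRNA genes lie in clusters that are transcribed together or inside the introns of other genes. The arrays carry probe sets for these loci and the labelling copies longer RNA, so the values describe signal at the microRNA gene and not the amount of mature microRNA. In bulk samples of sorted cells, fewer cells with a transcript and less transcript per cell cannot be told apart.

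The sequences of the Mir99a cluster and of its relatives show which microRNAs share a seed, given here in capitals. They are 5' to 3' from RefSeq (GRCm38.p6). The hairpin of Mir99a lies at chr16:77598936-77599000 on the plus strand, and Mirlet7c-1 and Mir125b-2 lie downstream on the same strand. On other chromosomes, Mir99b lies near Mirlet7e and Mir125a, and Mir100 near Mirlet7a-2 and Mir125b-1.
miR-99a-5p: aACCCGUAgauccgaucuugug
miR-100-5p: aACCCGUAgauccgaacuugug
miR-99b-5p: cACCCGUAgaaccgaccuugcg
miR-10a-5p: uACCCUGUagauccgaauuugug
let-7c-5p: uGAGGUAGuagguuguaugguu
let-7e-5p: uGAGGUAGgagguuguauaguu
miR-125a-5p: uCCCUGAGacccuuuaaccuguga
miR-125b-5p: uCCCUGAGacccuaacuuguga
The first 3 share the seed ACCCGUA; miR-99a-5p and miR-100-5p are identical at 21 of their 22 bases, and miR-99a-5p and miR-99b-5p at 18. The seed of miR-10a-5p is ACCCUGU. The let-7 pair shares GAGGUAG and the miR-125 pair shares CCCUGAG.

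Mir99a had a high signal in the osteoblasts of tumor-free mice, and the genes beside it did not share that pattern. In the osteoblasts of tumor-free mice Mir99a read 8.85, 8.44 and 7.55 on the log2 scale. Osteoblasts from mice with tumor read 4.18, 4.06 and 3.84. The endothelial arrays read 3.95, 4.08 and 4.003 in tumor-bearing mice and 5.86, 3.57 and 4.09 in tumor-free mice. Thus all 3 tumor-free osteoblast arrays lay above the other 9, the nearest of which was the first endothelial array of tumor-free mice. Within its array, Mir99a ranked at percentile 81.1 to 91.4 of all probe sets in tumor-free osteoblasts, at percentile 46.4 in that endothelial array, and at percentile 10.1 to 18.8 in the other 8. The osteoblast groups differed by -4.25, with SDs of 0.67 (tumor-free, n = 3) and 0.17 (tumor-bearing, n = 3), and the endothelial means were 4.51 ± 1.20 (SD, n = 3) without and 4.01 ± 0.07 with tumor. In the contrasts without the tumor-free osteoblasts, the endothelial tumor contrast of Mir99a was -0.50, and without the first endothelial array of tumor-free mice it was 0.18. Osteoblasts and endothelial cells of tumor-bearing mice differed by 0.02. Neither value is given with a test, since Mir99a passed the filter on low values only through the tumor-free osteoblasts.

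**Figure D1:**
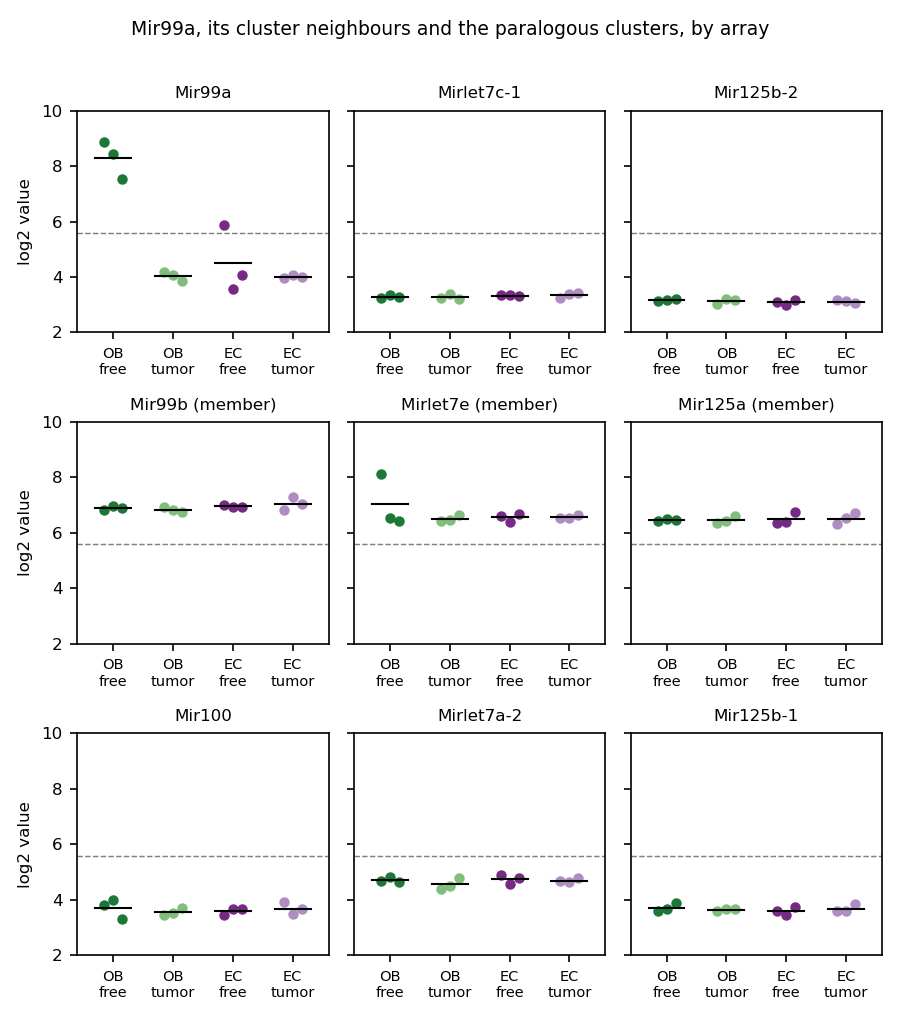
Log2 values (vertical axis) of Mir99a and 8 genes of its cluster and of the 2 paralogous clusters, 1 panel per gene. Points are the 3 arrays of each group (OB, osteoblasts; EC, endothelial cells; free, tumor-free; tumor, tumor-bearing), black lines are group means and the dashed line is the threshold of 5.58; Mir99a stands between 7.55 and 8.85 in tumor-free osteoblasts, and let-7e has a single high array at 8.13.

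Both neighbours of Mir99a lay near the lowest values of the arrays everywhere. Mirlet7c-1 ranged from 3.21 to 3.44 over the 12 arrays and Mir125b-2 from 3.01 to 3.199, and no group of either stood apart. Mir99ahg, the long non-coding transcript that hosts Mir99a, has 4 probe sets, none of which followed the pattern of Mir99a. Their differences between tumor-bearing and tumor-free osteoblasts were -0.27, -0.48, 0.34 and 0.44. The fourth read 4.22, 6.86 and 7.06 in tumor-free osteoblasts and 6.40, 7.001 and 6.06 with tumor, so these groups overlapped. The second read 7.83, 6.46 and 5.44 without tumor and 5.80, 7.18 and 5.31 with tumor, which also overlap. In the paralogous clusters, Mir100 (mean 3.63), Mir125b-1 (3.65) and Mirlet7a-2 (4.67) were low on all arrays, although their host transcript Mir100hg was higher in osteoblasts than in endothelial cells of tumor-free mice by 2.24 (limma, adjusted p = 0.00501).

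The 3 genes of the Mir99b cluster are members. Mir99b, whose seed is that of Mir99a, read 6.82, 6.98 and 6.90 in tumor-free osteoblasts and 6.93, 6.82 and 6.74 in tumor-bearing ones. Its groups overlapped, and the log2 difference was -0.07 (SE 0.12, limma, adjusted p = 0.873). Mir125a had differences between -0.05 and 0.03 in the 5 contrasts. Mirlet7e read 8.13 in the first tumor-free osteoblast array and between 6.38 and 6.66 in the other 11. That is the array in which Mir99a was also highest. Without it the Mirlet7e difference between tumor-bearing and tumor-free osteoblasts went from -0.52 to 0.03.

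The tested genes whose values followed Mir99a most closely over the 12 arrays, by Pearson's r, were Tada2b (0.92), Scn7a (0.91), Igll1 (0.91), Acot6 (0.90) and Dhrs11 (0.89). These 5 were picked from 14217 genes as the most alike, on the same arrays, and the 3 tumor-free osteoblast arrays carry most of each value. Tada2b, an adaptor of a histone acetyltransferase complex, read 7.82, 7.84 and 7.70 there and 6.39 to 6.97 in the other 9. Scn7a, a sodium channel gene, read 6.56, 6.47 and 5.95 there and 3.71 to 4.86 in the other 9. The most similar members were Mir124a-2 (0.81) and Mir127 (0.78), whose 12 values spanned far less than those of Mir99a.

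The members' signals were moderate and even. Their means over the 12 arrays ran from 5.61 to 9.58 with a median of 6.50; 8 were above 8 and 75 under 7. The brightest were Mir598 (9.58), Mir346 (8.92), Mir667 (8.76), Mir320 (8.53), Mir680-3 (8.46), Mir181d (8.18), Mir328 (8.17) and Mir139 (8.05). Mir598, for example, read 9.47, 9.36 and 9.41 in tumor-free osteoblasts, 9.63, 9.41 and 9.42 in tumor-bearing osteoblasts, 9.80, 9.44 and 9.89 in tumor-free endothelial cells and 9.71, 9.63 and 9.78 in tumor-bearing ones. Of the 190 microRNA genes below the threshold, the median mean was 3.64, and 33 exceeded the threshold in at least 1 array. These levels are not compared per length or per copy, since probes differ in their response.

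Some genes known from other tissues were among the members, and these examples were picked after their values were seen. Mir122, a liver microRNA, had a mean of 5.77, Mir375 of pancreatic islets 6.46, Mir124a-2 of neurons 5.77 and Mir200a of epithelia 5.97. Other such genes were below the threshold. Mir200b, which lies in the same transcript as Mir200a, had a mean of 3.86, and Mir200c had 5.22. Mir126a, the defining microRNA of endothelial cells, had a mean of 2.84 and read 2.88, 2.93 and 2.89 in the endothelial cells of tumor-free mice. Its host gene Egfl7, a secreted endothelial protein, was at 9.80 in those cells and 7.08 in tumor-free osteoblasts, a difference of -2.72 (limma, adjusted p = 8.75e-06). Among the low microRNA genes, Mir140, found in cartilage, had a mean of 3.49 although its host Wwp2 was higher in osteoblasts than in endothelial cells of tumor-free mice by 1.95 (limma, adjusted p = 0.0108). Mir218-1 had a mean of 4.69 while its host Slit2, an axon guidance ligand, was higher by 4.57 (limma, adjusted p = 3.82e-07).

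The level of a microRNA gene went with the base composition of its hairpin. RefSeq holds a hairpin for 258 of the 296 genes, and over these the mean level and the share of G and C had a Pearson's r of 0.80 and a Spearman's rho of 0.82, across genes, which are not independent replicates. Within the members the values were 0.37 and 0.44 (82 genes) and within the other microRNA genes 0.67 and 0.69 (176 genes). Members had a median of 56.0% G and C and the other microRNA genes 44.1%. Members were 0 of the 36 genes under 40%, 12 of the 115 from 40% to 50%, 45 of the 81 from 50% to 60% and 25 of the 26 at 60% or more. Hairpin length had a rho of 0.21 with the level. The hairpins below, with G and C in capitals, are the brightest 2 members with a RefSeq entry, then the low gene of the endothelium, then Mir99a.
Mir346: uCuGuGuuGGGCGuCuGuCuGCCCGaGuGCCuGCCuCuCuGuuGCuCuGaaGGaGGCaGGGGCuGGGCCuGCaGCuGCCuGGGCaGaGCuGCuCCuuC
Mir667: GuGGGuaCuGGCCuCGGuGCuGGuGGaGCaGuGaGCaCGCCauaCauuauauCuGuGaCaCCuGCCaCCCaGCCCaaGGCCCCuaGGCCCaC
Mir126a: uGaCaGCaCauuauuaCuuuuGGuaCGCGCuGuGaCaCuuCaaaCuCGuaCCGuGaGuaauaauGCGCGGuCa
Mir99a: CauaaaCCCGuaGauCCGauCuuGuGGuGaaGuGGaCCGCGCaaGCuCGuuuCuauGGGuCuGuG
Their shares of G and C are 65.3%, 62.0%, 45.2% and 52.3%. Among the genes from 50% to 60%, the quartiles of the mean were 4.99 and 6.40, and Mir99a at 5.21 lies between them.

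**Figure D2:**
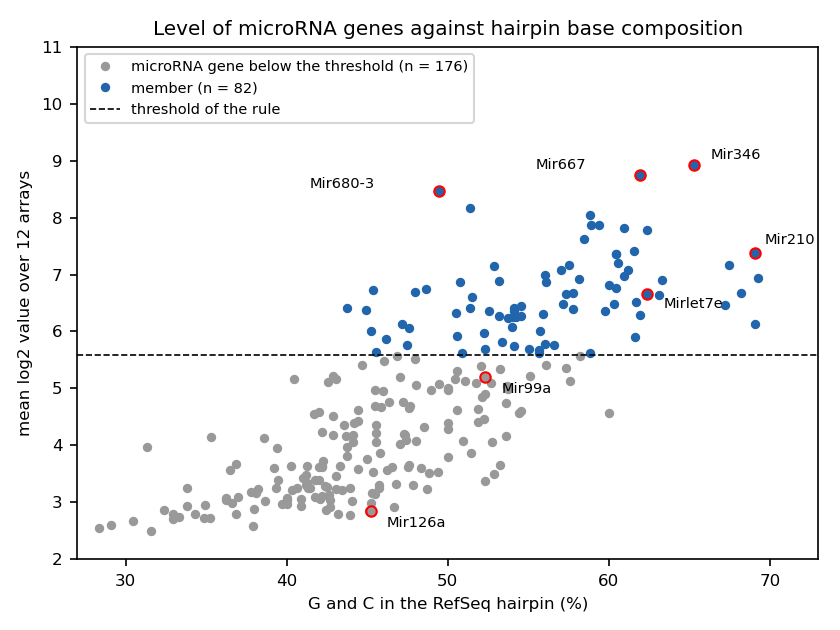
Mean log2 value over the 12 arrays (vertical axis) against the percent of G and C in the RefSeq hairpin (horizontal axis) of 258 microRNA genes. Blue points are the 82 members with a hairpin, grey points the 176 other microRNA genes, the dashed line the threshold of 5.58 and red rings named genes; the level rises with the share of G and C (Pearson's r 0.80).

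Most members varied little between arrays. The median SD within groups was 0.15 for members and 0.23 for all genes tested, and the median range over the 12 arrays was 0.56 against 0.91. The range was under 1 in 89 members, or 84.0%, against 54.3% of all genes tested. The means of the 4 groups lay within 0.5 of each other in 92 members. A range of 2 or more was found in 10 members (9.43%, against 14.7% of all genes tested), and 5 of the 106 had a top array at least 1 above the next (4.72%, against 2.22%).

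In most of the 10 wide members replicates of a group lay far apart. Mir103-2, whose product acts in insulin sensitivity, read 6.07, 9.03 and 8.76 in tumor-free osteoblasts and 7.76, 4.85 and 4.53 in tumor-bearing ones. In endothelial cells it read 7.49, 5.597 and 6.53 in tumor-free and 6.71, 9.05 and 4.45 in tumor-bearing mice. The osteoblast groups overlapped, and the largest difference of a member in that comparison, -2.24, had an SE of 1.25 (limma, adjusted p = 0.605). Mir181b-2, of a family that acts in lymphocytes, was high in single arrays, at 9.74 in the third tumor-free osteoblast array and 9.08 in the second tumor-free endothelial array, with 5.21 to 6.63 in the other 10. Mir505 likewise stood at 8.30 and 7.81 in the first arrays of tumor-bearing osteoblasts and tumor-free endothelial cells, and at 4.71 to 6.06 in the rest. Mir677 was high in the first and the third tumor-free osteoblast arrays, at 8.19 and 7.52, and in the third tumor-bearing endothelial array, at 7.37, with 4.66 to 5.87 in the other 9, and Mir681 was highest, at 9.32, in the same endothelial array.

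Mir17 and Mir18, neighbours in the cell cycle cluster that Myc activates, were high and low on the same arrays. In tumor-bearing osteoblasts Mir17 read 5.15, 8.14 and 4.51 and Mir18 read 5.47, 8.91 and 4.41, so the second array was the highest of the 12 for both and the third the lowest for both. Their Pearson's r over the 12 arrays was 0.98, as a description, since both probe sets read the same labelled RNA on each array. In a cluster each gene lies under 10 kb from the next. Of the 32 pairs of members in a shared cluster, 6 had an r above 0.5, or 18.8%. That stands beside 13.6% of the 5533 other pairs, and the medians were 0.19 and 0.16. Clusters were built from RefSeq hairpins, which 24 members lack, so any pairs of these members with their neighbours count among the other pairs. Mir99b, which lies near Mirlet7e, is such a member. Mir195a and Mir497 (0.70) and Mir23a and Mir27a (0.52) were among the 6. Mir25 and Mir93 of another cell cycle cluster had an r of 0.12, and Mir540 and Mir665 in the imprinted chromosome 12 cluster had -0.44.

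**Figure D3:**
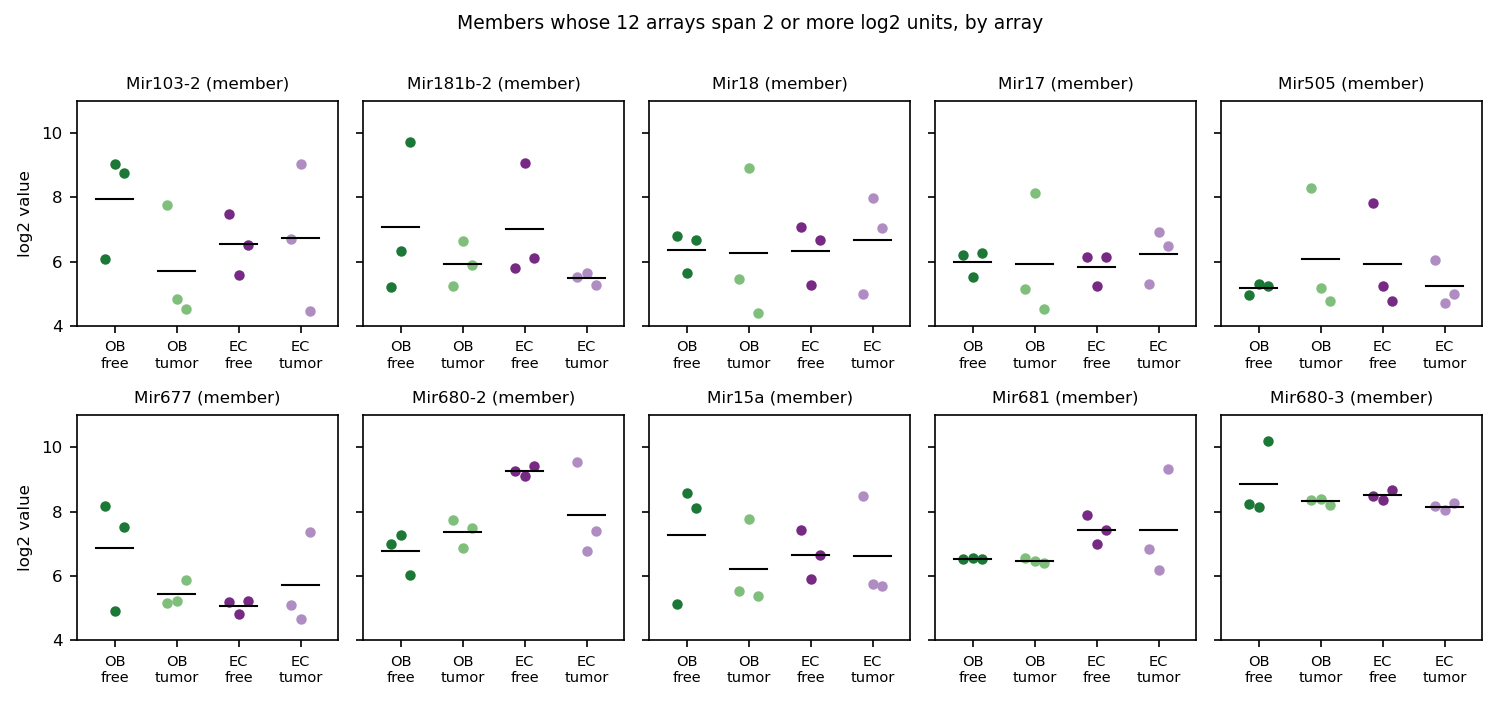
Log2 values (vertical axis) of the 10 members whose 12 arrays span 2 or more log2 units, 1 panel per gene. Points are arrays and black lines group means. OB stands for osteoblasts, EC for endothelial cells, free for tumor-free and tumor for tumor-bearing. In Mir680-2 the 3 tumor-free endothelial arrays lie together between 9.11 and 9.41. In Mir181b-2, Mir505 and Mir677 the high arrays are spread over different groups.

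In osteoblasts no member passed the test for a change with tumor. The limma count was 0 of 106 at an adjusted p under 0.05 (0.0563% of all genes tested passed). An unadjusted p under 0.05 was found for 4 members, beside 9.78% of all genes, and all 4 were lower in tumor-bearing mice, as 3.97% of all genes were. The arrays of the groups did not overlap in 16 members, against 14.5% of all genes. The median difference of the members was -0.10, beside -0.02 for all genes, and 24 of the 106 were above 0 (46.7% of all genes). With quantile normalization 31 were above 0 (46.5% of all genes), and with median centring also 31 (51.4%).

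Mir423 came closest. It read 6.17, 6.14 and 6.22 in osteoblasts with tumor and 6.43, 6.71 and 6.74 without, a difference of -0.46 (SE 0.11, limma, adjusted p = 0.238). The groups did not overlap. In endothelial cells it read 6.32, 6.09 and 6.32 in tumor-bearing and 6.70, 6.58 and 6.54 in tumor-free mice, again without overlap and with a difference of -0.36 (SE 0.11, limma, adjusted p = 0.847). Its host Nsrp1, a splicing regulator, differed by 0.24 in osteoblasts and -0.20 in endothelial cells. The arms it yields are printed here because Mir423 had an unadjusted p under 0.05 in both cell types.
miR-423-5p: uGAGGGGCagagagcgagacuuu
miR-423-3p: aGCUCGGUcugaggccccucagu
The others with an unadjusted p under 0.05 in osteoblasts were Mir194-1 (-0.47), Mir124a-2 (-0.28) and Mir297b (-0.53), with limma adjusted p of 0.446, 0.452 and 0.466. Mir194-2, whose mature product uGUAACAGcaacuccaugugga is also that of Mir194-1, read 7.22, 7.31 and 7.10 in tumor-bearing osteoblasts and 7.50, 7.33 and 7.31 in tumor-free ones. The highest statistics belonged to Mir23a (0.24), Mir93 (0.18), Mir455 (0.13), Mir27a (0.37) and Mir680-1 (0.38), with adjusted p between 0.708 and 0.737. Mir27a rested on the second tumor-bearing array, at 7.46 against 6.05 to 6.64 in the other 11.

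In endothelial cells no member passed the test for a change with tumor either. The limma count was 0 of 106 (0.0141% of all genes tested passed). An unadjusted p under 0.05 was found for 5 members (4.59% of all genes), 1 higher with tumor (2.62%) and 4 lower (1.97%). Differences above 0 were found for 41 (51.4% of all genes). With quantile normalization 56 were above 0 (59.4% of all genes), and with median centring also 56 (60.3%). Mir692-1 read 8.05, 7.92 and 7.90 in tumor-bearing and 7.59, 7.52 and 7.48 in tumor-free mice, a difference of 0.43 (SE 0.12, limma, adjusted p = 0.753), and these groups did not overlap. In osteoblasts its difference was the other way, with 7.55, 7.90 and 7.73 in tumor-bearing and 7.81, 8.07 and 7.83 in tumor-free mice. Lower in tumor-bearing mice with an unadjusted p under 0.05 were Mir449c (-0.32), Mir423 (-0.36), Mir211 (-0.39) and Mir680-2 (-1.36). In Mir680-2 the first tumor-bearing array read 9.55, above all 3 tumor-free arrays, and the other 2 read 6.76 and 7.38. The groups did not overlap in 9 members (10.5% of all genes).

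The test of whether the tumor effect differed between the cell types passed for no member. The limma count was 0 of 106 (0.0281% of all genes tested passed), 40 values were above 0 (47% of all genes), and 3 had an unadjusted p under 0.05 (6.47% of all genes), 2 above 0 (3.52%) and 1 below (2.95%). They were Mir692-1 (-0.60, limma, adjusted p = 0.488), Mir449c (0.35, adjusted p = 0.705) and Mir680-2 (1.95, adjusted p = 0.763). For Mir99a the difference of the tumor effects was -3.76, given as a description.

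**Figure D4:**
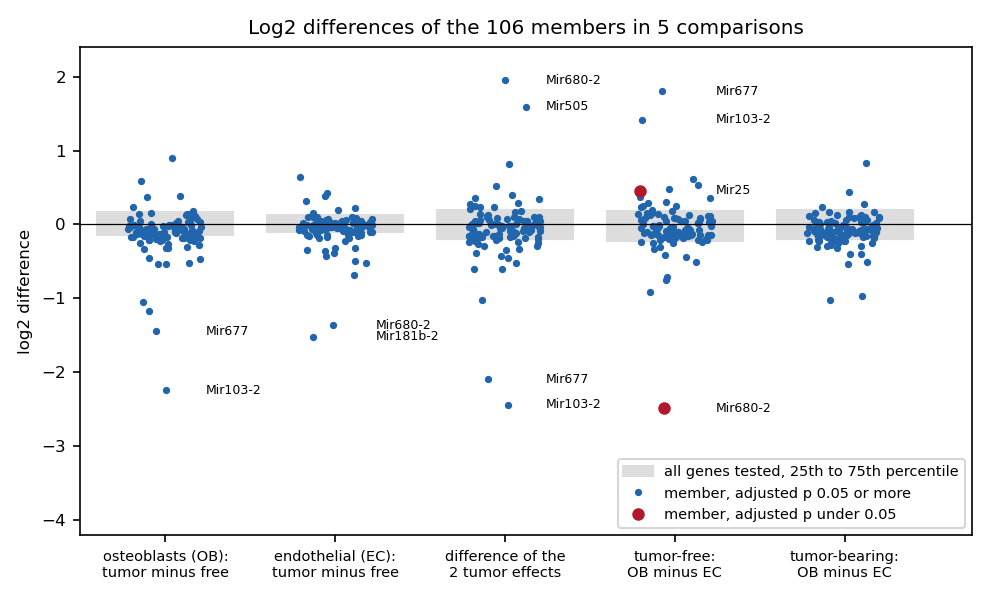
Log2 differences (vertical axis) of the 106 members in 5 comparisons (OB, osteoblasts; EC, endothelial cells); points are members and grey boxes span the 25th to 75th percentile of all genes tested. The 2 red points are members with an adjusted p under 0.05, Mir25 and Mir680-2 in tumor-free mice; names mark those and differences beyond 1.3, and points are spread sideways only to be seen.

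Osteoblasts and endothelial cells of tumor-free mice differed in 2 members, Mir680-2 and Mir25. These are 1.89% of the members, where 12.4% of all genes tested passed, 5.38% higher in osteoblasts and 7% lower. The count with an unadjusted p under 0.05 was 9 (23.5% of all genes), 5 higher (10.5%) and 4 lower (12.9%), and the groups did not overlap in 18 (29.4%). The median difference of the members was -0.05, and 44 were above 0 (49.1% of all genes). With quantile normalization 58 were above 0 (55% of all genes), and with median centring 49 (53%).

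Mir680-2, on the X chromosome, was lower in osteoblasts. It read 7.005, 7.28 and 6.03 there and 9.25, 9.11 and 9.41 in endothelial cells, a log2 difference of -2.49 (SE 0.60, limma, adjusted p = 0.0216). The groups did not overlap. In tumor-bearing mice the osteoblasts read 7.73, 6.86 and 7.50 and the endothelial cells 9.55, 6.76 and 7.38, which overlap, and the difference was -0.53 (limma, adjusted p = 0.685). The lowest array, the third of tumor-free osteoblasts, had a neutrophil marker median of 9.49, against 6.02 to 7.20 in the other 11. Without it the difference was -2.12 (limma, adjusted p = 0.0728), and without the first, the second or the third tumor-free endothelial array the adjusted p was 0.0651, 0.0565 or 0.0702.

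The locus has copies on chromosomes 6 and 12, Mir680-1 and Mir680-3, which yield the same mature microRNA, printed here because 1 gene of the 3 passed the test.
miR-680: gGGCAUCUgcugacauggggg
Mir680-1 read 6.75, 6.53 and 5.73 in tumor-free osteoblasts and 7.67, 6.74 and 6.72 in endothelial cells, a difference of -0.71 (limma, adjusted p = 0.226). Mir680-3 read 8.25, 8.13 and 10.21 in osteoblasts and 8.47, 8.37 and 8.68 in endothelial cells, a difference of 0.36 (limma, adjusted p = 0.701) set by the third osteoblast array. The copies are similar in sequence, so the share of signal that crosses between their probe sets is uncertain.

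Mir25 was higher in osteoblasts. It read 6.61, 6.87 and 7.02 there and 6.48, 6.24 and 6.43 in endothelial cells, a difference of 0.45 (SE 0.13, limma, adjusted p = 0.0390), and the groups did not overlap. In tumor-bearing mice it read 6.77, 6.68 and 6.75 in osteoblasts and 6.47, 6.64 and 6.71 in endothelial cells, a difference of 0.13 (limma, adjusted p = 0.635). Mir25 lies in an intron of Mcm7, a replication helicase subunit, beside Mir93 and Mir106b. Mcm7 differed by 0.51 in tumor-free mice (limma, adjusted p = 0.100) and Mir93 by -0.15. Without the second or the third tumor-free osteoblast array the adjusted p of Mir25 was 0.0969 or 0.119, without the first, the second or the third tumor-free endothelial array 0.0660, 0.140 or 0.0814, without the first, the second or the third tumor-bearing osteoblast array 0.0564, 0.0545 or 0.0511, and without the second tumor-bearing endothelial array 0.0555. With only the groups compared in the fit it was 0.121. Its mature product shares the seed AUUGCAC with that of Mir92b, another member, which read 7.22, 7.20 and 7.32 in tumor-free osteoblasts and 7.09, 7.08 and 7.40 in endothelial cells.
miR-25-3p: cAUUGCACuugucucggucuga
miR-92b-3p: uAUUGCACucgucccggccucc

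Others with an unadjusted p under 0.05 in tumor-free mice were Mir669c (-0.44), Mir128-2 (-0.42) and Mir598 (-0.30), lower in osteoblasts, and Mir692-1 (0.37), Mir124a-2 (0.29), Mir297b (0.53) and Mir219a-2 (0.30), higher there. Their limma adjusted p ran from 0.0625 to 0.181. Some of them passed under an alternative. Mir669c passed with array weights (limma, adjusted p = 0.0402), with trend and robust eBayes (0.0486) and without the third tumor-free osteoblast array (0.0495). Mir128-2 passed without that array, at a difference of -0.61 (limma, adjusted p = 0.0144). Mir598 passed without the second tumor-free endothelial array (limma, adjusted p = 0.0434), and Mir692-1 with quantile normalization (limma, adjusted p = 0.0218).

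Between the cell types of tumor-bearing mice 0 of the 106 members passed the limma test (10.6% of all genes tested passed). The 4 members with an unadjusted p under 0.05 (22.8% of all genes) were all lower in osteoblasts (11.9% of all genes): Mir30d (-0.51), Mir149 (-0.32), Mir688 (-0.25) and Mir708 (-0.22). Mir30d read 5.90, 6.07 and 6.11 in osteoblasts and 6.31, 6.87 and 6.43 in endothelial cells, without overlap (limma, adjusted p = 0.0737). With array weights its difference was -0.60 and passed the test, at an adjusted p of 0.0342. The groups did not overlap in 13 members (28.1% of all genes), and 28 differences were above 0 (44.4% of all genes). The comparisons between cell types and those with tumor share arrays, so their values are not independent of each other.

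Members and the genes that contain them were compared on the same arrays. Of the 106, 36 lie within a gene found to be on the same strand in RefSeq. Of these, 25 have a host that was tested, 20 hosts in all. Members inside a gene whose strand relation was not known, such as Mir326 in Arrb1, are left out here. Over the 12 arrays the r between a member and its host had a median of 0.14, from -0.55 to 0.67. Between the cell types of tumor-free mice 5 of the 20 hosts passed the limma test, where 12.4% of all genes tested did. None of the 5 members inside those hosts passed. Of the 25 members Mir25 alone passed (limma, adjusted p = 0.0390), and its host Mcm7 did not (adjusted p = 0.100). Pde2a, a phosphodiesterase of endothelium, was lower in osteoblasts by a difference of -2.70 (adjusted p = 1.26e-06), while Mir139 inside it differed by -0.03. Mir139 read 8.32, 7.98 and 7.99 in tumor-free osteoblasts and 8.15, 8.09 and 8.15 in endothelial cells. Cdkl1 differed by -2.55 and Mir681 by -0.91, Copz2 by 1.63 and Mir152 by 0.04, Fgf13 by 0.67 and Mir504 by -0.08, and Pank2 by -0.80 and Mir103-2 by 1.42. Of the 20 hosts Pde2a (-3.26) and Cdkl1 (-2.64) passed in tumor-bearing mice, where 10.6% of all genes tested did. None passed in the tumor contrasts.

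**Figure D5:**
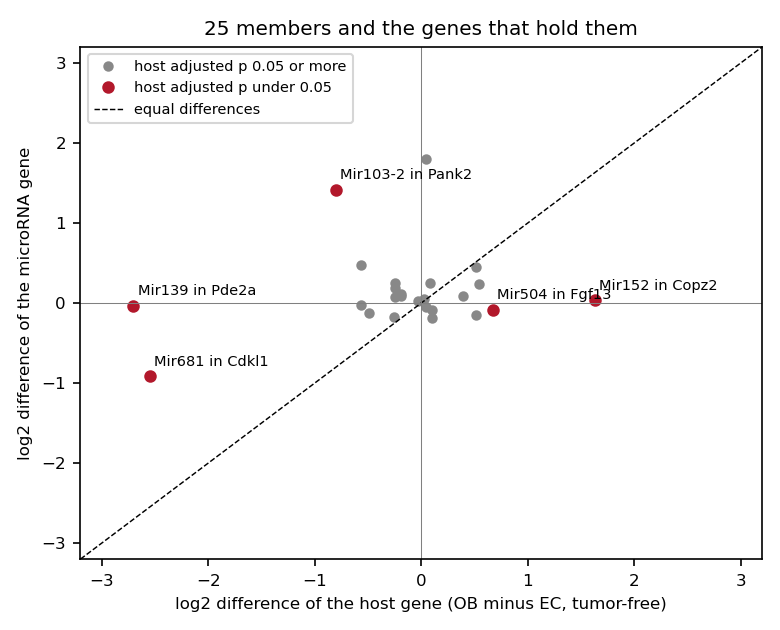
Log2 difference between osteoblasts (OB) and endothelial cells (EC) of tumor-free mice. The vertical axis gives 25 members and the horizontal axis the gene holding each. Mcm7, Spaca6, Dalrd3, Clcn5 and Cdc20b hold 2 of these 25 members each. Red points are hosts with an adjusted p under 0.05 and the dashed line marks equal differences; Mir139 is at -0.03 while Pde2a is at -2.70.

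Most members shared a seed with no other member. RefSeq has a mature sequence for 92 of the 106, with 152 different seeds, and 14 seeds are shared by at least 2 members, 30 members in all. Of the 6 measured genes with the seed ACAUUCA, Mir181d, Mir181c and Mir181b-2 are members. Of the 9 genes with the let-7 seed GAGGUAG, Mirlet7e (6.67) and Mirlet7i (6.36) are members. The seed of Mir103-2 and Mir107, GCAGCAU, overlaps that of Mir15a, AGCAGCA, when shifted by a base, and the mature products are shown to make this visible.
miR-103-3p: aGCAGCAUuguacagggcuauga
miR-107-3p: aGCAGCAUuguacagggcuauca
miR-15a-5p: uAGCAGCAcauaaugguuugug
Mir103-2 and Mir15a are both wide members, and Mir107 (mean 6.13) is not. Mir15a read 5.11, 8.57 and 8.13 in tumor-free osteoblasts, and Mir103-2 was also highest of these arrays in the second and the third.

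Lists of microRNA genes with a known setting were read against the 106 members among all 296 measured microRNA genes. Of 20 genes listed for endothelium 12 were measured and 4 are members: Mir23a, Mir24-2 and Mir27a, which lie in a cluster, and the hypoxia gene Mir210 (7.38). None passed in any of the 5 contrasts. Of the 15 listed for blood cells 10 were measured, of which Mir150 (6.93), Mir181b-2, Mir146b (5.69) and Mir342 (6.61) are members and none passed. Of the 36 listed for mesenchymal cells and osteoblasts 25 were measured and 5 are members. Among these are Mir199a-1 (7.16) and Mir152, and none of the 5 passed. Of the 6 genes of this list that were tested, 1 is no member. That gene was lower in osteoblasts than in endothelial cells of tumor-free mice, by -2.73. In endothelial cells with tumor it differed by -2.58. A gene below the threshold can pass the filter on low values through 1 group, so these values are a description and are given without a test. Of the 22 in cell cycle clusters 17 were measured and 5 are members. Mir25 alone passed, in tumor-free mice, where 12.4% of all genes tested did. Mir142, which marks blood cells and is no member, read 5.66 in the third tumor-bearing osteoblast array and 3.85 to 4.34 in the other 11. The pan-haematopoietic markers had a median of 6.81 and a mean of 6.56 in that array. In the third tumor-free osteoblast array, where Mir142 read 4.34, they had a median of 6.62 and a mean of 6.82, and the neutrophil markers a median of 9.49. In imprinted clusters, mostly on chromosome 12, 41 of 57 listed genes were measured and 15 tested, 14 of them members. In osteoblasts with tumor 14 of these 15 differences were below 0, where 46.7% of all genes were above 0. None passed (0.0563% of all genes tested passed), and the median was -0.10, as over all members.

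No gene for the proteins that make and use microRNAs passed in either tumor contrast. The limma count was 0 of 7 tested for nuclear processing and 0 of 5 for export and dicing. It was 0 of 6 for effectors and 0 of 13 for turnover and editing. Over all genes tested 0.0563% passed in osteoblasts and 0.0141% in endothelial cells. An unadjusted p under 0.05 was found in osteoblasts for 1, 0, 0 and 1 genes of these lists (9.78% of all genes). In endothelial cells it was found for 0, 0, 1 and 0 (4.59% of all genes). In tumor-bearing against tumor-free osteoblasts Drosha differed by -0.21, Dgcr8 by -0.24, Dicer1 by 0.10 and Ago2 by -0.15. In endothelial cells the values were -0.02, -0.05, -0.19 and -0.14. The widest difference was that of the RNA-degrading enzyme gene Pnpt1 in osteoblasts, at 1.49 (limma, adjusted p = 0.324), and Ago3, an Argonaute, differed by -0.70 in endothelial cells (adjusted p = 0.816). In the comparison of the cell types without tumor 2 of these genes passed, where 12.4% of all genes tested did, both lower in osteoblasts: Ago3 at 6.93 ± 0.21 (SD, n = 3) against 7.90 ± 0.18, a difference of -0.97 (limma, adjusted p = 0.00971), and Smad1, which binds Drosha and is a BMP signal transducer, at 6.36 ± 0.16 against 7.50 ± 0.11 (-1.13, adjusted p = 0.000957). In tumor-bearing mice Smad1 alone passed (-0.73, limma, adjusted p = 0.0150), where 10.6% of all genes tested did, and Ago3 differed by -0.46 (adjusted p = 0.212).

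Reported targets of miR-99 and miR-100 lay on both sides of 0. In osteoblasts with tumor, where Mir99a was low, 10 of 19 tested targets were above 0, with a median of 0.0050 beside -0.02 for all genes. None passed with limma (0.0563% of all genes tested passed), and 2 had an unadjusted p under 0.05 (9.78% of all genes). Igf1r, a growth factor receptor, differed by 0.54 (limma, adjusted p = 0.396), Mtor, the kinase, by 0.17, Smarca5, a chromatin remodeller, by 0.24, and Smarcd1, of another remodelling complex, by -0.62 (adjusted p = 0.352). Between osteoblasts and endothelial cells of tumor-free mice 11 of the 19 were above 0, with a median of 0.070 beside -0.0053 for all genes. At an unadjusted p under 0.05, 2 were higher (10.5% of all genes) and 2 lower (12.9%) in osteoblasts. Igf1r (-0.69, limma, adjusted p = 0.0432) and the BMP receptor Bmpr2 (-0.73, adjusted p = 0.0105) passed, both lower in osteoblasts. Over all genes tested 12.4% passed. In tumor-bearing mice 9 of the 19 were above 0. There Bmpr2 alone passed (-0.75, limma, adjusted p = 0.0106), beside 10.6% of all genes tested.

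The arrays bore the markers of their sorts. The median of the osteoblast markers measured was 10.1 to 10.9 in osteoblast arrays and 6.62 to 7.17 in endothelial ones, and that of the endothelial markers 5.66 to 6.18 and 9.91 to 10.3. Fibroblast and stromal markers had medians of 10.7 to 11.5 in osteoblast arrays, above the osteoblast markers in each, and 5.56 to 7.07 in endothelial arrays. In endothelial cells all 8 of them were higher with tumor (51.4% of all genes), with a median difference of 0.78. None passed with limma (0.0141% of all genes tested passed). Chondrocyte markers had medians of 8.25 to 10.2 in osteoblast arrays. The part of these other markers in the members' values was not tested. Array medians over all probe sets lay between 5.95 and 6.04, and those of the members between 6.38 and 6.66.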

How the data were processed

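RNA of sorted osteoblasts and endothelial cells was measured on 12 arrays, 3 per group. Per the labels' protocols, the RNA came from 5000 sorted cells (Pico Pure kit) and underwent single primer isothermal amplification before biotin labelling, which can distort the proportions of transcripts. The authors deposited log2 values. Per the submitters' processing notes they used the package affy. For its version, the summary method and the background step the entry is: not given in the sources used here. Their normalization between arrays was kept. The members, lists and tests were chosen with earlier results of these data known.

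Of 34760 probe sets, 21640 had 1 symbol in a platform annotation, 1321 had several and 11799 none. Symbols were updated through a RefSeq table (GRCm38.p6), which matched 21553. Genes above the array's 40th percentile in at least 3 arrays were tested, 14217 in all and all 106 members. limma 3.58.1 in R 4.3.3 fitted 1 coefficient per group to all 12 arrays, with eBayes, 5 contrasts and two-sided p-values adjusted by Benjamini-Hochberg over all genes tested, with a threshold of 0.05. P-values measure the spread between arrays called biological replicates. Python 3 with numpy and pandas made the tables. The steps were tested on simulated data.

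Named were Mir99a and the members of its paralogous clusters, members passing the test or with the 5 highest and 5 lowest statistics in a contrast, the 8 brightest, the 3 on each side of the threshold, their hosts, and from the other lists up to 4 genes with the smallest p and Drosha, Dgcr8, Dicer1 and Ago2. Genes of other tissues, seed relatives, wide members, Mir142 and low microRNA genes with changed hosts were named after their values were seen. Hosts and clusters (neighbours under 10 kb apart) come from RefSeq. RefSeq's microRNA table held no entry for 14 members. Alternatives were quantile normalization, median centring, other filters, the mean of probe sets, trend and robust eBayes, array weights, a fit on the compared groups alone, a block for the replicate number, a further fold cutoff of 2, each array left out in turn and the third replicate of both osteoblast groups left out.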

Additional observations from a re-analysis of the deposited data

How the results depend on the processing

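The count of members passing stayed at 0 in both tumor contrasts and in their difference under every alternative run. Between the cell types of tumor-free mice the count of 2 became 1 with a fold of at least 2, with a replicate block, and with a fit on the compared groups alone. It became 3 with quantile normalization, with array weights and with trend and robust eBayes, and with an array left out it ranged from 0 to 3. There Mir680-2 passed in 17 of 22 alternatives and Mir25 in 10 of 22, and the replicate block gave Mir25 an adjusted p of 0.0507 with limma. No other count changed with the block. Deviations of same-numbered arrays correlated from -0.080 to 0.074 and those of arrays with unequal numbers from -0.10 to 0.086. These values show no pairing by number, but with so few arrays per group they cannot decide whether arrays share mice. Between the cell types of tumor-bearing mice the count of 0 became 1 with array weights. The members would be 57 with the 60th percentile as threshold and 161 with the 20th.

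Signs turned only for differences that did not pass. With array weights Mir125a was -0.030 in osteoblasts with tumor and 0.011 between the cell types of tumor-free mice, and Mirlet7e was -0.017 in endothelial cells with tumor. With quantile normalization Mir99b was 0.020 and Mir125a 0.013 between the cell types of tumor-free mice. Without replicate 3 of both osteoblast groups Mir680-1 was -0.021 and Mir125a -0.061 in osteoblasts with tumor. With an array left out, the differences in osteoblasts with tumor ran from -0.085 to 0.62 for Mir27a, from -0.066 to 0.054 for Mir125a and from -0.82 to 0.034 for Mirlet7e. In endothelial cells with tumor they ran from -0.0016 to 0.17 for Mir150, from -0.97 to 0.18 for Mir99a, from -0.022 to 0.21 for Mir99b, from -0.067 to 0.15 for Mir125a and from -0.077 to 0.064 for Mirlet7e. The difference between the tumor effects ran from -0.15 to 0.067 for Mir125a and from -0.83 to 0.025 for Mirlet7e. Between the cell types it ran from -0.092 to 0.097 for Mir125a and from -0.076 to 0.78 for Mirlet7e in tumor-free mice, and from -0.16 to 0.041 for Mir125a in tumor-bearing mice. Apart from the array left out, causes were not tested. The number of arrays and the low signal of most microRNA genes limit what can be seen.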
